A study of Homo sapiens with 4 samples.

Results

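The AP-1 transcription factor genes were examined in open chromatin data from LNCaP cells and from enzalutamide-resistant cells derived from them. The members were the 10 genes FOS, FOSB, FOSL1, FOSL2, JUN, JUNB, JUND, ATF3, BATF and BATF3, out of 20037 protein-coding genes of the RefSeq annotation of GRCh38. They are a family listed by name, and the rule for their regions uses position alone. Every deposited summit in a gene body or within 20 kb of either of its ends was taken, and overlapping summits of the libraries were joined into regions, which gave 84 regions around the members out of 151102 in all. The assay was ATAC-seq, in which a transposase cuts and tags accessible DNA, and there were 4 libraries. The 2 control libraries came from LNCaP, an established androgen-responsive prostate cancer cell line labelled as wild type and carrying no treatment label. The other 2 came from cells labelled LNCaP-resistance and treated with enzalutamide, an antiandrogen drug. The labels give RPMI-1640 medium with fetal bovine serum for all, while the study's methods adapted the cells to charcoal-stripped serum, which is low in androgens, before selecting the resistant line. A lasting effect of the serum cannot be told apart from one of the drug. The labels give no subline number for the resistant cells, while the names of the deposited lists carry the number of LN-35, the subline the study selected at its highest dose by stepwise exposure to the drug. The resistant cells are 1 selected line, so a difference can belong to that line as well as to resistance. Nothing states that the 2 libraries of a group came from separate cultures, and the spread between them may be technical.

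AP-1 is a dimer of basic leucine zipper proteins. FOS proteins cannot pair with themselves and bind DNA with a JUN protein, JUN proteins also pair with each other, and ATF3 and the BATF proteins pair with JUN proteins and can dampen or redirect their activity. Growth factors, stress and MAP kinases switch several of these genes on within minutes, and AP-1 sites are a frequent feature of enhancers that are open in epithelial tumour cells with reduced dependence on androgens.

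Several AP-1 genes have matches to AP-1 or CRE-type motifs close to their start, and binding was not measured. The 250 bases before the start are printed for the members whose start had a summit in all 4 libraries and a match before it, from the RefSeq promoter table of GRCh38.p14, read 5′ to 3′ on the strand of the gene: FOS at chr14:75278578-75278827 (+), FOSL2 at chr2:28392608-28392857 (+), JUN at chr1:58784048-58784297 (−) and JUND at chr19:18281623-18281872 (−). Capitals mark the matches to the AP-1 motifs TGANTCA and TGANNTCA and to the CRE-type motif TGACGT, searched on both strands, where a match to TGANNTCA can contain one to TGACGT.
FOS: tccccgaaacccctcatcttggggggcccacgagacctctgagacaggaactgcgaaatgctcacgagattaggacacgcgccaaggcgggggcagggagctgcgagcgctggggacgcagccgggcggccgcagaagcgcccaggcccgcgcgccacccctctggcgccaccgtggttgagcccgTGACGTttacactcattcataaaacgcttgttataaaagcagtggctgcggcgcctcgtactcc
FOSL2: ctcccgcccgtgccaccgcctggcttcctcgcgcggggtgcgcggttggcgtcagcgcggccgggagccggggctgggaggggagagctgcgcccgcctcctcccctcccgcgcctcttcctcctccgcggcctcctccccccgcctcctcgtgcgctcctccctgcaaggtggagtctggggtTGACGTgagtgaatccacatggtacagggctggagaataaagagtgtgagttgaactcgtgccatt
JUN: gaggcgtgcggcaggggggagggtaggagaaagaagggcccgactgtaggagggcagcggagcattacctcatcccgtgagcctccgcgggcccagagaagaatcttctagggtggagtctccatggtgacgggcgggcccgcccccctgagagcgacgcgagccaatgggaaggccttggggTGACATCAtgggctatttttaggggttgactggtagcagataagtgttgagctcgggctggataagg
JUND: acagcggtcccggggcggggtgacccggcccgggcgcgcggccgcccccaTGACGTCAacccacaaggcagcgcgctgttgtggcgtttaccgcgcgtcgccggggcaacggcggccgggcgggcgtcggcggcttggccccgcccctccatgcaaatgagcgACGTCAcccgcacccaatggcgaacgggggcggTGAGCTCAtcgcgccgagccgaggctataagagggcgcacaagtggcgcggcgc
FOS had TGACGT at −64 and FOSL2 had it at −66, both counted to the first base of the match from the start. JUN had TGACATCA at −67, the 8-base form known from this promoter. JUND held TGACGTCA at −200, ACGTCA at −87, which is TGACGT on the other strand, and TGAGCTCA at −54. Of the 8 members in the table, 6 had a match, the other two being ATF3 with TGACATCA at −123 and FOSB with TGACGT at −60, while JUNB and BATF had none in this window. Among all 35116 promoters of the table, 20.7% held at least 1 of the 3 motifs in the 250 bases before the start, with 6.57% for TGANTCA, 10.1% for TGANNTCA and 7.10% for TGACGT. FOSL1 and BATF3 are named only.

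The AP-1 windows held nearly as many summits in the resistant libraries as in LNCaP, although the resistant lists were much shorter. There were 62 and 60 summits around the members in LNCaP libraries 1 and 2, and 66 and 51 in resistant libraries 1 and 2. The whole lists held from 107344 to 117245 summits in LNCaP and from 45618 to 70866 in the resistant cells, with median scores from 10.3 to 15.9. The mean number of summits around the members in the resistant libraries was therefore 0.959 of that in LNCaP, where the whole lists gave 0.519 and the same windows of all protein-coding genes gave 0.546. The ratio was 1.06 within replicate 1 and 0.85 within replicate 2, by the replicate number in the library titles. Of the 10 members, 6 had at least as many summits in the resistant cells as in LNCaP. The same held for 19.5% of 18955 protein-coding genes with a summit in LNCaP. The median ratio per gene was 1.0 over the members and 0.636 over those protein-coding genes. FOSL1 held 6 and 6 summits in LNCaP and 8 and 5 in the resistant libraries, and JUNB held 7 and 9 against 8 and 8. JUN stood at the other end, with 5 and 6 summits in LNCaP and 4 and 2 in the resistant libraries. The lists carry no read counts, so the depth is unknown, and a missing summit does not show that the chromatin was closed.

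**Figure D1:**
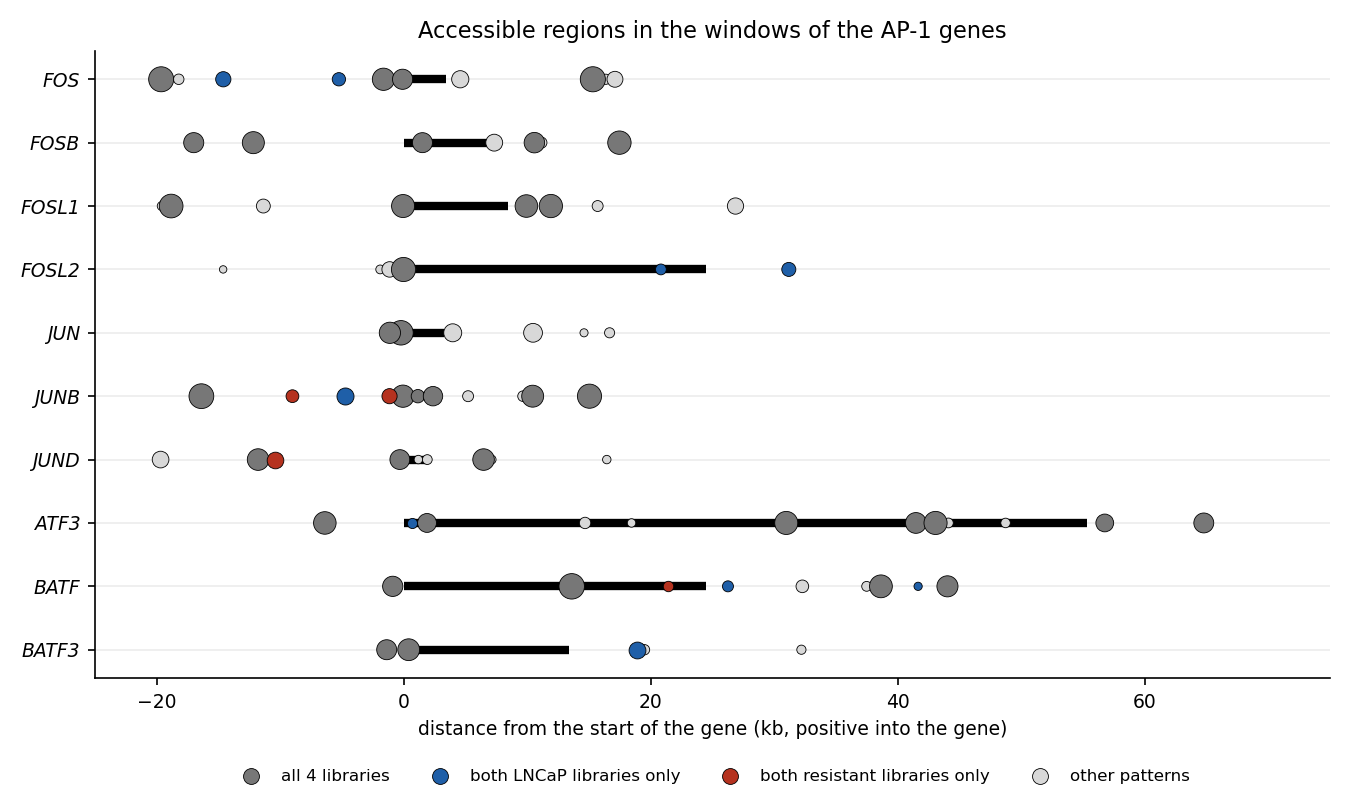
Position of each of the 84 regions around the AP-1 genes, as distance from the start of the gene in kb (horizontal axis), with 1 line per gene and the gene body as a black bar. Each point is a region, coloured by the libraries that had a summit in it and sized by its mean percentile over the 4 libraries. A region at or next to the start was found in all 4 libraries for every gene other than FOSB and ATF3.

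Regions around the AP-1 genes were more often found in all 4 libraries, and less often in LNCaP alone, than regions around protein-coding genes in general. Of the 84 regions, 38 (45.2%) had a summit in all 4 libraries. The background, over the 108403 regions in the same windows of all protein-coding genes, was 23.7%. It pools regions, so genes with many regions weigh more. It was not matched for gene length or for the share of regions at starts. LNCaP-only regions, present in each LNCaP list and absent from each resistant list, numbered 9 (10.7%), against 26.3%. The reverse pattern was found for 4 regions (4.76%), against 3.8%. That share was near the background with the full lists but not with shortened ones. With lists cut to equal length, 15 of 57 regions (26.3%) were resistant-only, against 14.7%. With a score of at least 10, 6 of 57 (10.5%) were, against 4.48%. Under either cut, regions whose LNCaP summits fell below it count as resistant-only. The region at 1900 bp inside ATF3, found in all 4 full lists, is an example. The 38 shared regions included at least 1 in every member, from 1 around FOSL2 to 7 around ATF3. The LNCaP-only regions lay around FOS, FOSL2 and BATF with 2 each and around JUNB, ATF3 and BATF3 with 1 each, and the resistant-only regions around JUNB with 2 and around JUND and BATF with 1 each. Among regions at a percentile of at least 50 in both LNCaP libraries, 3 of 34 (8.82%) around the members had no summit in the resistant cells, against 30.1% of 35650 in the background. The classes depend on single libraries. Without resistant library 2, 14 of 83 regions (16.9%) were found in the resistant cells alone, against 11.4%, and leaving out LNCaP library 1 gave 9 of 78 (11.5%), against 6.26%. Leaving out LNCaP library 1 or 2 gave 15 of 78 LNCaP-only regions (19.2%) each time, against 41.4% and 44.5%.

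**Figure D2:**
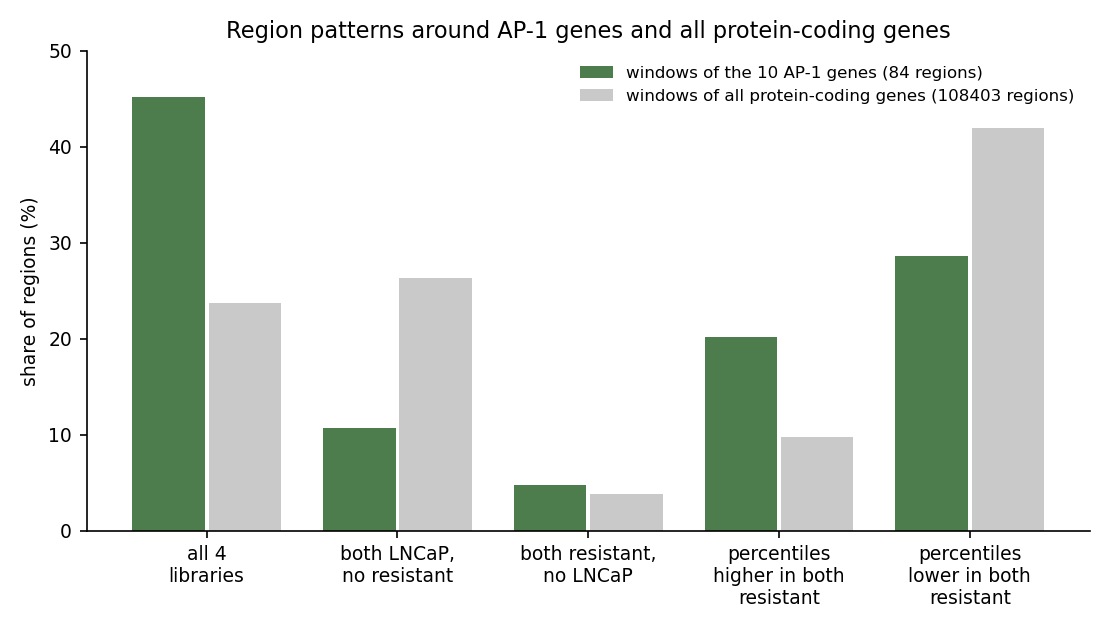
Share of regions in percent (vertical axis) with each pattern, for the 84 regions around the 10 AP-1 genes (green) and the 108403 regions around all protein-coding genes (grey). The AP-1 genes had 45.2% of regions in all 4 libraries against 23.7%, and 10.7% in LNCaP alone against 26.3%.

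The strength of a region was compared by percentile, the percent of the summits of its own library with an equal or lower score, with 0 where the library had no summit. Both resistant libraries stood above both LNCaP libraries in 17 of the 84 regions (20.2%), against a background of 9.77%, and below both in 24 (28.6%), against 41.9%. The median difference, resistant minus LNCaP, was −2.77 percentile points over the members' regions and −12.1 over the background. The split depends on how lists of unequal length are scaled. When every list was cut to its top 45618 summits by score, 36 of 57 regions were higher in the resistant cells and 7 were lower, against 32.5% and 25.5% in the background. Ranked among shared regions alone, 28 were higher and 16 lower, against 14.6% and 38.9%. Under each scaling the members had the larger share of higher regions and the smaller share of lower ones than the background. Without resistant library 2, 36 of 83 regions (43.4%) were higher, against 24.7%. An exact permutation test of 2 libraries against 2 cannot give a two-sided p below 0.333, so no test was made and differences are set against the spread between replicates. In bulk cells, fewer cells with an open region and a weaker opening in each cell cannot be told apart.

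At the starts of the genes, FOS and JUN ranked higher in the resistant cells, BATF, FOSL1, FOSL2 and ATF3 ranked lower, and JUNB, JUND and BATF3 overlapped between the groups when percentiles were taken over the full lists. The strongest summit within 1 kb of the start was used. For ATF3, where the upstream end of the gene was taken as the start, it was a summit in LNCaP alone, at 33.2 and 0.800. Of the 9 members with such a summit, 2 were higher in both resistant libraries and 4 were lower, where among 14440 protein-coding genes with a summit there 28.2% were higher and 21.2% lower. The median difference over these 9 members was −2.74 points, against 0.594 over those protein-coding genes, and −1.97 with FOSB counted as 0, within the 6.43 points of spread between replicates. The split depends on the scaling. With equal numbers of summits, 5 of 8 members were higher and 1 was lower, where 65.9% and 5.84% of protein-coding genes were, and the median difference was 28.7 against 16.4. Ranked among shared regions, 4 of 9 were higher and 3 lower, against 50.3% and 11.3%.

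FOS, the founding immediate early gene of the family, had its start summit at percentiles 51.3 and 49.5 in LNCaP libraries 1 and 2 and 62.1 and 70.3 in resistant libraries 1 and 2. The resistant libraries were both higher, by a mean of 15.9 points against a pooled SD of 4.22 (n = 2 per group), and by 10.8 and 20.9 points within replicates 1 and 2. The difference was 55.7 points with equal numbers of summits and 37.0 with a score of at least 10, but −4.66 within 3 kb of the start, where a stronger region at −1627 bp enters. With equal numbers of summits both LNCaP summits fell below the cut and counted as 0, which sets the size of the 55.7 points. The region, chr14:75278228-75279111, covers the promoter bases printed above. Its summits lay at 1 and −5 bp from the start in LNCaP libraries 1 and 2 and at 33 bp in resistant library 2. In resistant library 1 the summit was at −350 bp, so the difference joins separate positions. JUN, which encodes c-Jun, the partner needed by FOS proteins, had its start summit at 80.0 and 91.5 in LNCaP and 92.7 and 96.2 in the resistant cells. LNCaP library 2 lay close to resistant library 1, and the difference of 8.72 points was little above the pooled SD of 6.04. It was 2.94 points without LNCaP library 1 and 28.2 with equal numbers of summits.

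Over the full lists and within 1 kb, BATF showed the largest difference of the members' starts. BATF is a small partner of JUN proteins that lacks an activation domain and is best known from lymphocytes. Its start region, chr14:75521337-75521846 at −878 bp, stood at 85.9 and 79.5 in LNCaP and at 39.2 and 30.3 in the resistant libraries, so the groups were far apart. The mean difference was −48.0 points, against a pooled SD of 5.50, and the differences within replicates were −46.7 and −49.2 points. BATF was also lower with equal numbers of summits, by −39.9 points, and it had no summit within 500 bp of its start. FOS and JUND had larger differences with equal numbers of summits, but there both of their LNCaP summits fell below the cut and counted as 0. FOSL1, which encodes FRA-1, stood at 84.4 and 84.9 against 77.2 and 67.8, and FOSL2, which encodes FRA-2, at 90.8 and 90.1 against 85.5 and 82.8. Both were lower in the resistant libraries, by −12.2 and −6.35 points, but with equal numbers of summits the differences were 3.90 and 3.54 points and of the opposite sign. The tables used give no strand for FOSL1 and BATF3, and the gene end with a summit in every library was taken as the start.

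JUNB, a JUN protein that can oppose c-Jun, stood at 69.1 and 79.6 in LNCaP and 78.0 and 65.2 in the resistant cells. JUND, the member that is expressed most constantly in many tissues, stood at 56.8 and 56.4 against 69.4 and 41.4, and BATF3 at 88.4 and 49.0 against 81.6 and 59.2. In each of these the replicates of a group differed by more than the group means, and the differences within replicates had opposite signs, for example 12.6 and −15.0 points for JUND. With equal numbers of summits the starts of JUNB and JUND were higher in both resistant libraries, by 29.2 and 46.9 points, and they were higher, by 11.0 and 13.2 points, when ranked among shared regions. For JUND, both LNCaP summits fell below the cut to equal numbers and counted as 0. Its summits lay at −455 and −246 bp in LNCaP libraries 1 and 2 and at −252 and −256 bp in resistant libraries 1 and 2. Only that of LNCaP library 2 was within the bases printed above. FOSB had no summit within 1 kb of its start in any library. Its nearest region, chr19:45469036-45470495 at 1530 bp inside the gene, was in all 4 libraries, at 70.0 and 59.5 in LNCaP and 53.4 and 45.9 in the resistant cells.

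**Figure D3:**
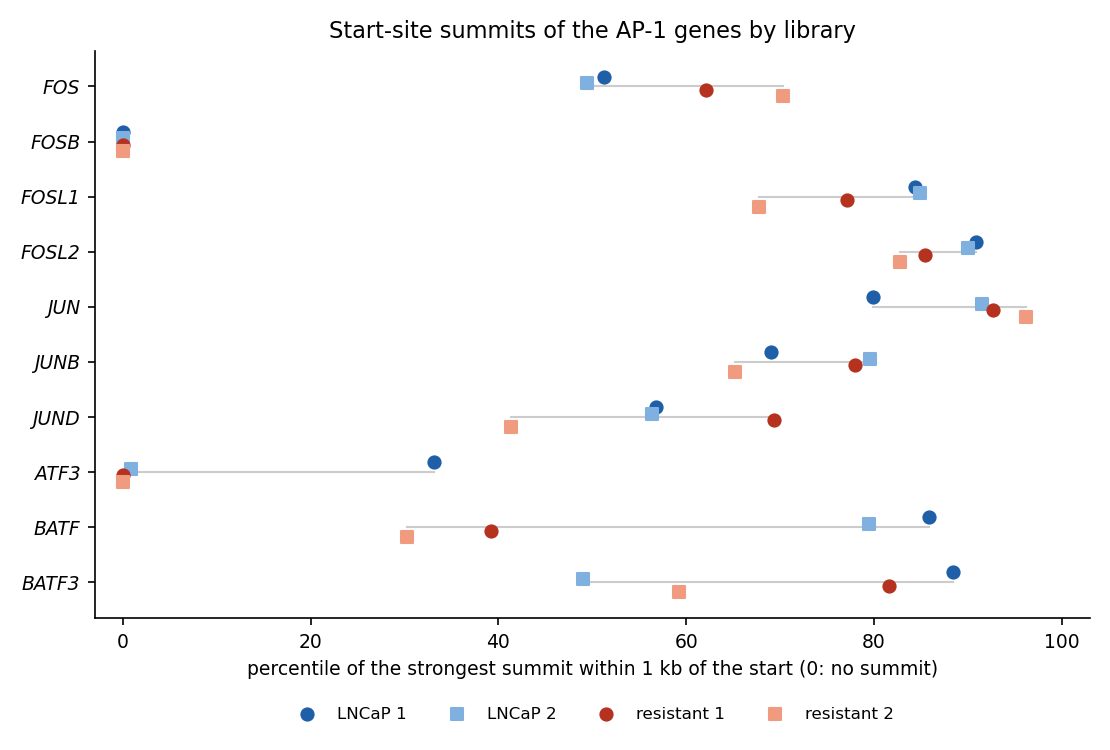
Percentile of the strongest summit within 1 kb of the start (horizontal axis, 0 where there was none) for each AP-1 gene, with 1 point per library. The BATF points separate most, with LNCaP at 85.9 and 79.5 and the resistant libraries at 39.2 and 30.3, while JUNB, JUND and BATF3 overlap on these percentiles of the full lists.

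The largest difference of all 84 regions lay inside ATF3, a stress-induced gene whose product forms dimers with JUN proteins and which is known to be transcribed from alternative promoters. The region chr1:212566667-212567670, 1900 bp downstream of the annotated start, stood at percentiles 4.70 and 13.6 in LNCaP and at 95.1 and 86.9 in the resistant libraries. It was among the weakest summits of both LNCaP lists and among the strongest of both resistant lists, with scores of 3.08 and 4.14 against 89.6 and 38.6. Its rank from the top was 111734 and 92798 in LNCaP and 3461 and 5974 in the resistant libraries. The mean difference was 81.9 points, against a pooled SD of 6.04, and 89.7 points with equal numbers of summits. The start region itself, chr1:212565841-212566347 at 687 bp, had weak summits in LNCaP alone, at 33.2 and 0.800. The strongest summit within 1 kb was thus lower in the resistant cells, while the strongest within 3 kb was higher, by 67.7 points. With equal numbers of summits or a score of at least 10, no summit was left within 1 kb and the difference was 0. It was also 0 within 500 bp. Other starts of the gene were not compared as starts.

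Of the 12 regions around ATF3, 7 were found in all 4 libraries. The region at 30989 bp stood at 67.1 and 74.2 in LNCaP and 86.8 and 88.3 in the resistant cells, and the one at 56782 bp, beyond the end of the gene, at 33.7 and 13.7 against 65.7 and 60.7. Both were higher in each resistant library, by 16.9 and 39.5 points. The strongest region of the gene, chr1:212608227-212608740 at 43079 bp, overlapped between the groups, at 74.0 and 82.2 against 80.6 and 80.9. In all, 3 regions around ATF3 were higher in the resistant cells, 1 was lower and 8 overlapped.

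Downstream of JUN, regions ranked lower in the resistant cells, while the start ranked higher. The region chr1:58773310-58773815, 10485 bp downstream of the start and beyond the end of this short gene, stood at 83.5 and 81.6 in LNCaP, at 33.0 in resistant library 1, and had no summit in resistant library 2. The region chr1:58779808-58780318 at 3982 bp followed the same pattern, with 70.0 and 78.0 in LNCaP, 30.7 in resistant library 1 and none in resistant library 2. LNCaP was higher in both, with mean differences of −66.0 and −58.6 points against pooled SDs of 16.5 and 15.8. The region at −1107 bp, inside the divergent transcript JUN-DT, was in all 4 libraries, from 61.6 to 69.5.

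Around JUNB, regions of opposite pattern lay within a few kb of each other, inside the neighbouring gene HOOK2, which encodes a microtubule adaptor. The region chr19:12786464-12786981 at −4764 bp was in LNCaP alone, at 77.2 and 79.8. Those at −1136 bp and −8998 bp were in the resistant cells alone. The first, chr19:12790099-12790602, stood at 65.6 and 51.5, and the second at 49.4 and 24.0. The second joins summits at −8795 bp in resistant library 1 and at −9200 bp in resistant library 2. Between and around these regions, the start region overlapped between the groups. The strongest region, at −16372 bp, ranked at 91.1 and 92.4 in LNCaP and 93.0 and 93.1 in the resistant cells. In all, 6 of the 11 regions around JUNB had a summit in every library.

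JUND had a comparable pair upstream. The region chr19:18291812-18292314 at −10441 bp, inside the uncharacterised gene LOC124904653, was in the resistant cells alone, at 76.9 and 71.7. The region next to it, at −11778 bp, was in all 4 libraries and stood at 82.5 and 84.6 in LNCaP and 60.5 and 45.7 in the resistant cells. The first was thus absent from both LNCaP lists, with a difference of 74.3 points (pooled SD 2.60), and the second was lower in both resistant libraries, by −30.4 points (pooled SD 7.50).

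Around FOS, differences in both directions surrounded a strong shared region. The region at 15328 bp, downstream of the gene, stood at 97.4 and 98.1 in LNCaP and 97.3 and 87.9 in the resistant libraries and was the strongest of the window. A short way further downstream, chr14:75295511-75296516 at 17119 bp, inside the noncoding gene LINC01220, had no summit in LNCaP library 1, stood at 14.4 in LNCaP library 2, and reached 55.4 and 62.3 in the resistant cells. Upstream, chr14:75263980-75264482 at −14597 bp was in LNCaP alone, at 58.6 and 60.0. The difference at 17119 bp was 51.6 points (pooled SD 8.01), but it joins separate positions. The summit of LNCaP library 2 lay at 17438 bp, and those of resistant libraries 1 and 2 at 16986 and 16933 bp. With equal numbers of summits the groups overlapped at −14597 bp.

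FOSB was the other FOS gene among the 5 largest positive differences. The region chr19:45475043-45475613, 7342 bp from the start of FOSB and just past its end, stood at 33.3 in LNCaP library 1, was missing from LNCaP library 2, and was at 63.5 and 56.5 in the resistant cells, a difference of 43.3 points (pooled SD 17.0). The strongest region of FOSB, at 17479 bp inside RTN2, overlapped between the groups, at 84.3 and 76.8 against 88.1 and 76.0. Around FOSL1 the strongest region, at −18820 bp, lay within 1 kb of an end of the neighbouring gene DRAP1 and was higher in the resistant cells, at 78.7 and 78.0 against 92.3 and 86.9. Over the full lists FOSL2 had no region higher in both resistant libraries, though its start region was with equal numbers of summits, and its strongest region was that of its start. Its region at 31196 bp, in LNCaP alone, stood at 47.8 in both libraries.

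Around BATF and BATF3, strong shared regions stood beside regions that ranked lower in the resistant cells. The region chr14:75535819-75536387, 13617 bp inside BATF, was the strongest of all 84, at 99.0 and 98.5 in LNCaP and 99.0 and 96.0 in the resistant cells. The region at 44043 bp stood at 96.4 and 90.8 in LNCaP and only at 60.6 and 10.6 in the resistant libraries, which lay far apart. Near BATF3, chr1:212680670-212681175 at 18918 bp was in LNCaP alone, at 82.0 and 70.7, a mean difference of −76.3 points (pooled SD 5.67). The region at −1366 bp before BATF3 was higher in the resistant cells, at 42.4 and 52.7 against 71.6 and 61.9. PTPRC, CD14 and LYZ, defining genes of blood cells, where BATF and BATF3 are best known, had no summit within 1 kb of their start in any library, and CD3E had 1 in LNCaP library 1 and resistant library 1 alone.

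**Figure D4:**
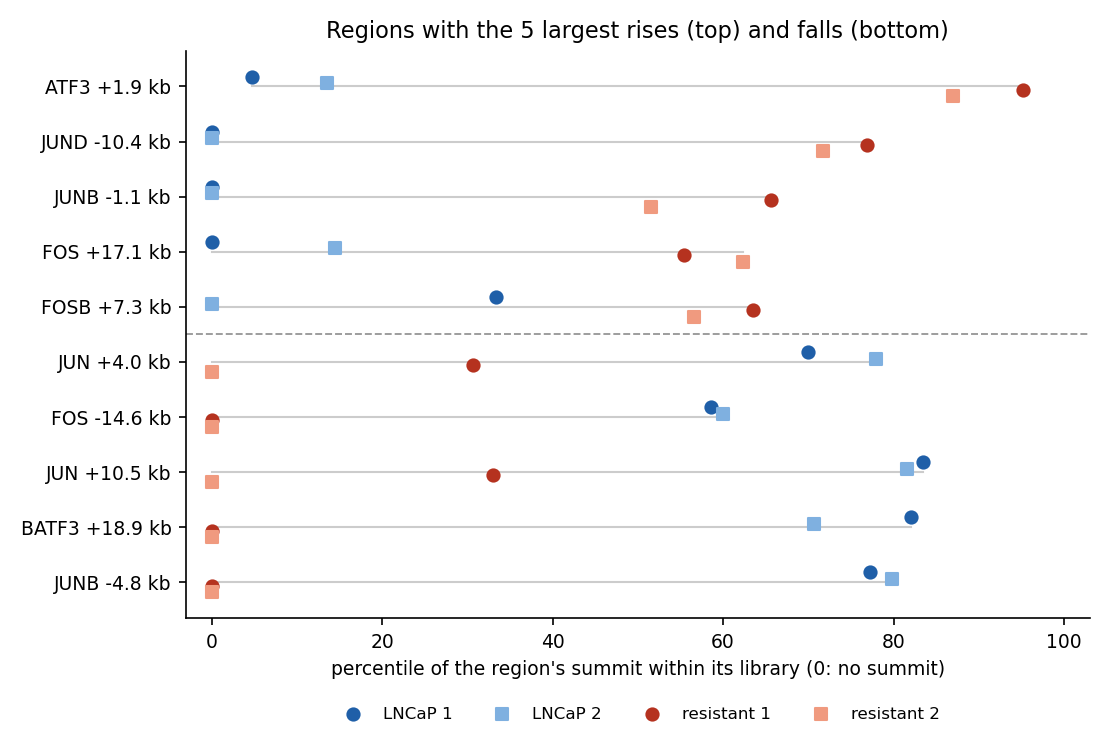
Percentile of each region in each library (horizontal axis, 0 where there was no summit) for the 5 regions with the largest positive and the 5 with the largest negative difference, resistant minus LNCaP, among those whose groups do not overlap. The region inside ATF3 runs from 4.70 and 13.6 in LNCaP to 95.1 and 86.9 in the resistant cells, and the JUNB region at −4764 bp is found in LNCaP alone.

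By position, 10 of the 84 regions lay within 1 kb of the start of their gene, 14 in the rest of the gene bodies, 12 within 1 kb of the start of another protein-coding gene, or of either end where the tables give no strand, and 48 elsewhere in the flanks. The shared share was highest at the starts, with 8 of 10, and at the starts of other genes, with 8 of 12, and lowest in the flanks, with 16 of 48. Of the 13 regions found in 1 group alone, 10 were in the flanks, which held 48 of the 84 regions, 7 of them in LNCaP and 3 in the resistant cells. Shares by position were not computed over all regions, so these counts do not tell the AP-1 genes from other genes. A further 23 regions were found in 1 library each, 10 of them in resistant library 1, and the highest of these stood at 51.4.

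Genes that work with AP-1 differed in both directions at their starts. Of 13 other family members and dimer partners, 11 had a summit within 1 kb of the start, 3 were higher in both resistant libraries and 3 lower. The shares over protein-coding genes with a summit there were 28.2% and 21.2%. The median difference of the list was 2.72 points, with no difference of 20 points or more without overlap. Of 21 MAP kinase and immediate early genes, 20 had a summit, 9 were higher and 3 lower, with a median of 4.41, where the background was 28.2% higher and 21.2% lower. MAP2K7 encodes a kinase that activates JNK, which in turn phosphorylates c-Jun. It stood at 2.50 in LNCaP library 1, was missing from LNCaP library 2, and was at 64.1 and 60.5 in the resistant cells. MAP2K4, on the same list, overlapped between the groups, at 84.3 and 94.0 in LNCaP against 95.1 and 86.9. MAPK8, also listed, was higher in both resistant libraries, by 4.68 points. MAPK9, which encodes JNK2, was at 46.0 and 49.9 against 78.3 and 60.8. The immediate early genes NR4A1 and EGR3 were also higher in both resistant libraries, by 34.8 and 31.3 points, while EGR1 and IER2 were lower, by −10.1 and −12.1 points.

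Genes known as AP-1 targets differed in both directions. Of 16, 11 had a summit within 1 kb of the start, 5 were higher in both resistant libraries and 4 lower. The shares over protein-coding genes with a summit there were 28.2% and 21.2%. The median difference of the list was −1.64 points. TIMP1, an inhibitor of matrix metalloproteinases, had no summit in LNCaP and stood at 94.7 and 80.9 in the resistant cells. CD44, an adhesion receptor, likewise had none in LNCaP and stood at 73.3 and 63.0. The chemokine gene CXCL8 was among those lower in the resistant cells, with 91.0 and 96.0 in LNCaP against 53.0 and 52.9.

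**Figure D5:**
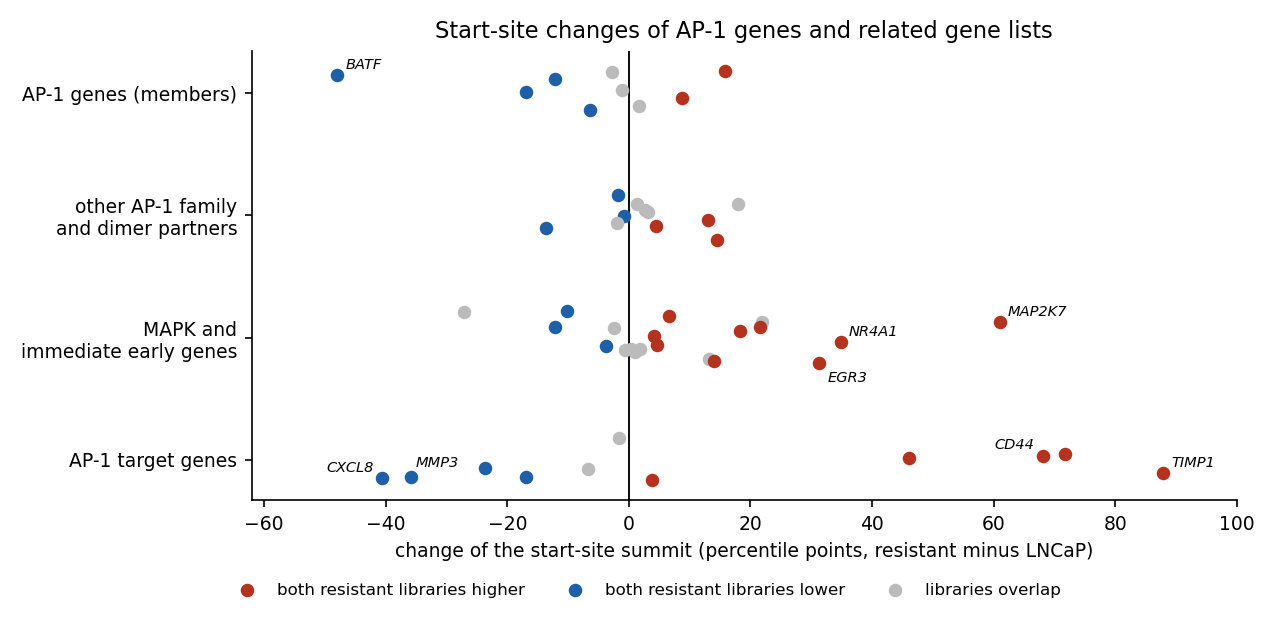
Difference of the start summit, resistant minus LNCaP, in percentile points (horizontal axis), with 1 point per gene that had a summit within 1 kb of its start, for the 10 AP-1 genes and the lists of related genes. Colours tell genes whose libraries do not overlap between groups from those that overlap, names are given for some of the non-overlapping genes at 25 points or more, and the vertical position within a list carries no value.

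The identity of the cells was checked at the starts of marker genes. Of 8 luminal prostate markers, 6, with TMPRSS2, FOXA1 and KRT8 among them, had a summit in all 4 libraries, KRT18 had one in 3 of them, and KLK3 had none within 1 kb. Of 4 neuroendocrine markers, 4 had a summit in all 4 libraries, and SYP was higher in both resistant libraries, by 12.7 points. Of 4 stromal markers, COL1A2 alone had one, at 63.0 and 55.3 in LNCaP and 37.1 and 17.5 in the resistant cells.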

How the data were processed

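ATAC-seq summits were analysed from 2 LNCaP and 2 resistant libraries. The authors deposited 1 summit list per library, each with a score of the form −log10 of a p-value or q-value, without saying which, and gave no counts. The submitters' processing notes name hg38, Bowtie2 2.2.5, SAMtools 1.6 and MACS2 2.2.6. Peaks were called per library. Each summit was extended by 250 bp in both directions, and extended summits that overlapped between the 4 libraries were merged. Genes and promoters came from RefSeq tables of GRCh38.p14, and no genome or exon annotation was used. Members and gene lists were chosen with earlier results of these data known. The regions given with values are, per member, the start and the strongest region and, over all members, the 5 largest differences in each direction without overlap between groups. The list genes given with values differ by 20 points or more without overlap, at most 4 per list, and some of these are not reported here. The other regions and genes named were chosen after their values were seen. The replicate block pairs libraries of the 2 groups by the replicate number in their titles, but over shared regions the deviations of paired libraries correlated at −0.0128. The computation was tested on simulated lists. Python 3.11.15, numpy 2.4.6, pandas 2.3.3 and matplotlib 3.10.9 were used.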

Additional observations from a re-analysis of the deposited data

Results flagged for a closer look

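Regions between 20 and 100 kb from a member lie outside the comparisons above. Those found in both resistant libraries and in neither LNCaP library, with a mean percentile of at least 50, numbered 7 of the 178 regions there (3.93%), against 1.46% of all 151102 regions. Regions of the same strength found in both LNCaP libraries alone numbered 14 (7.87%), against 12.6%. The strongest lay at −46716 bp from ATF3, outside any gene of the table, at percentiles 89.5 and 78.4 in resistant libraries 1 and 2 (mean 83.9). Around JUNB the regions at 75208 bp and 49354 bp, both inside MAST1, had means of 75.3 and 53.3. Around FOSB the region at 60832 bp, inside OPA3, had a mean of 70.3, the one at 41456 bp, inside VASP, 64.8, and the one at 80394 bp, also inside OPA3, 54.2. The last was uneven, with 72.2 and 36.2 in the resistant libraries. The region at 62244 bp from FOS, outside any gene of the table, had a mean of 60.6.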

How the results depend on the processing

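The class counts and the split of higher and lower regions depend on the length of the lists, and the depth behind that length is unknown. Widening summits by 100 or 500 bp and leaving out the starts of other genes kept every class count within 1.5 times its value. With a score of at least 10, 24 of 57 regions were shared, 5 LNCaP-only, 15 higher and 11 lower. The background shares were 24.4%, 23.75%, 11.2% and 37.1%. With equal numbers of summits, 4 of 57 regions were LNCaP-only, 15 resistant-only, 36 higher and 7 lower. The background shares were 16.2%, 14.7%, 32.5% and 25.5%. Summits below the cut counted as absent. The summit ratio was 1.49, and FOSL1 and FOSL2 changed sign to 3.90 and 3.54. The median difference at starts was 28.7 over the 8 members with a summit left there. It was 16.0 with FOSB and ATF3 counted as 0. Windows of 5 kb gave 4 LNCaP-only, 2 resistant-only, 24 shared, 11 higher and 13 lower of 44 regions. The background shares were 26.55%, 3.70%, 24.1%, 9.9% and 41.9%. Windows of 50 kb gave 20, 7, 64, 28 and 44, and no background was computed for them. Fewer or more regions enter by construction. Ranked among shared regions, 28 of 84 were higher and 16 lower, against 14.6% and 38.9%. The median at starts was then 5.48 with FOSB counted as 0 and 11.0 without it. Asking for presence in just 1 library of a group gave 21 LNCaP-only and 15 resistant-only regions, with no background computed. Rank from the top of the list, chosen after seeing the data, gave 38 higher and 14 lower of 84, against 19.5% and 33.4%. Within 3 kb of the start, FOS changed sign to −4.66 and ATF3 to 67.7, because a stronger region then enters. Leaving out each library in turn left 74 to 83 regions. Of these, 10 to 15 were LNCaP-only, 5 to 14 resistant-only, 39 to 43 shared, 19 to 36 higher and 25 to 35 lower. The background shares ran from 27.5% to 44.45%, 5.225% to 11.4%, 26.6% to 31.65%, 12.8% to 24.7% and 43.2% to 67.2%. The ratios ran from 0.836 to 1.08. The median differences at starts, with FOSB counted as 0, ran from −9.29 to 1.82. With the replicate block, 20 of 84 regions were higher and 25 lower, against 11.5% and 44.4%, and the ratio was 0.951. Beyond those named, the cause was not tested.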
